A study of Rattus norvegicus with 20 samples.

Results

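MHC class II genes and the genes that assemble and switch on the class II molecule were measured in bone RNA of alcohol-preferring and alcohol-nonpreferring rats and their congenic partners. The 8 genes were RT1-Da, RT1-Db1, RT1-Ba, RT1-Bb, RT1-DMa, RT1-DMb, Cd74 and Ciita, and their probe sets were those whose gene symbol in the array's probe annotation was exactly one of these names. They had 14 of the 31042 probe sets that were not array controls, and 13 of the 14 were among the 18625 probe sets bright enough to be tested. The rule used no measured level of any gene.

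Total RNA came from the proximal femur of 4-week-old rats of 4 inbred strains, with 5 arrays a strain and 20 arrays in all, each from 1 rat as far as the labels tell. NP rats are the inbred alcohol-nonpreferring strain and P rats the inbred alcohol-preferring strain. NP.P rats are congenics that carry the P segment of chromosome 4q22-q34 on the NP background, and P.NP rats carry the NP segment on the P background. Both congenics were made by repeated backcrossing, so each strain is 1 inbred line, no strain carries a transgene or received a treatment, and the labels give no sex for the arrayed rats. The values were MAS5 signals, a linear intensity that Affymetrix software gives for each probe set. Median array signals lay between 291.9 and 322.3, the 3′ to 5′ signal ratio of GAPDH lay between 1.03 and 1.15, and that of beta-actin between 1.85 and 2.39, with the GAPDH ratios of P rats above those of NP.P and P.NP rats. Of 11 bone markers listed, such as collagens and bone sialoprotein, 9 had a probe set and all 9 were tested, so the labelled tissue had its defining markers. The question was which class II genes differ with the chromosome 4 segment and which with the rest of the genome.

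Class II molecules display peptides from engulfed material to CD4+ T cells and are made mainly by B cells, dendritic cells and macrophages, all of which occur in the marrow of a femur. An alpha and a beta chain form the molecule, the invariant chain (Cd74) occupies the groove and guides the molecule to the endosome, and the DM molecule helps exchange the last invariant chain fragment for a peptide. Their genes share promoter elements known as the X and Y boxes, bound by the RFX complex and NF-Y, and the coactivator Ciita docks on these factors without touching DNA itself.

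None of the 8 genes lies on chromosome 4. In the GRCr8 annotation of RefSeq the chain genes form a cluster on chromosome 20, with RT1-Da at chr20:4515393-4520387, RT1-Db1 at chr20:4550594-4560182, RT1-Ba at chr20:4577057-4581650 and RT1-Bb at chr20:4598475-4604118. RT1-DMb at chr20:4695009-4702560 and RT1-DMa at chr20:4708932-4712335 follow on the same chromosome. Cd74 lies at chr18:56527071-56536406 and Ciita at chr10:5646854-5694393.

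The promoters are shown because several of these genes were lower together in NP.P rats. Whether promoter elements have a part in this was not tested, and the sequences are those of the reference genome, not of these strains. RefSeq promoter entries matched 6 of the 8 genes, and the stretches below end 12 bases after the match nearest to the start site. Each reads 5′ to 3′ on the gene's own strand. Capitals mark the letters CTAGNAAC (the X-box letters used here), CTGATTGG (a Y box) and ATTGG (the core of the Y box, written CCAAT where it lies on the other strand), searched on both strands of the 250 bases upstream.
RT1-Da chr20:4515273-4515382, plus strand: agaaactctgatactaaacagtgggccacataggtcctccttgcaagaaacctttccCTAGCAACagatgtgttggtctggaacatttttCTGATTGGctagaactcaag
RT1-Db1 chr20:4560201-4560310, minus strand: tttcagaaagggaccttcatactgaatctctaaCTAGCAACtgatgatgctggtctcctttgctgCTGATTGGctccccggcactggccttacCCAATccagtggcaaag
RT1-Ba chr20:4576921-4577030, plus strand: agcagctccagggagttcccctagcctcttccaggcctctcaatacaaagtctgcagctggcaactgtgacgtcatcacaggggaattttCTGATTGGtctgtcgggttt
RT1-Bb chr20:4604163-4604272, minus strand: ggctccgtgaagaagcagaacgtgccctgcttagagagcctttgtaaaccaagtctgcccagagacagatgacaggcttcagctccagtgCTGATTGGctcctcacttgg
RT1-DMa chr20:4712353-4712462, minus strand: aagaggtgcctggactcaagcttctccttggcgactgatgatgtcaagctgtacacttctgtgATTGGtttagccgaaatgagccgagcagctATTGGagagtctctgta
Cd74 chr18:56526956-56527033, plus strand: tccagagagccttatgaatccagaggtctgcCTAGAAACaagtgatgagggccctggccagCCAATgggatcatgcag

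The Y box letters were found in 4 of the 6 promoters, those of RT1-Da, RT1-Db1, RT1-Ba and RT1-Bb, against 3.19% of the 33469 promoters searched. The X-box letters were found in 3 of the 6, those of RT1-Da, RT1-Db1 and Cd74, against 2.98% of all promoters. RT1-Da and RT1-Db1 were 2 of only 27 promoters (0.0807%) that held both. The 5-letter core, which is part of each Y box match, was found in all 6 but also in 34.0% of all promoters. The match is one of exact letters and shows no binding. Variants of the X and Y boxes were not searched, so a promoter without a match may still hold one.

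**Figure D1:**
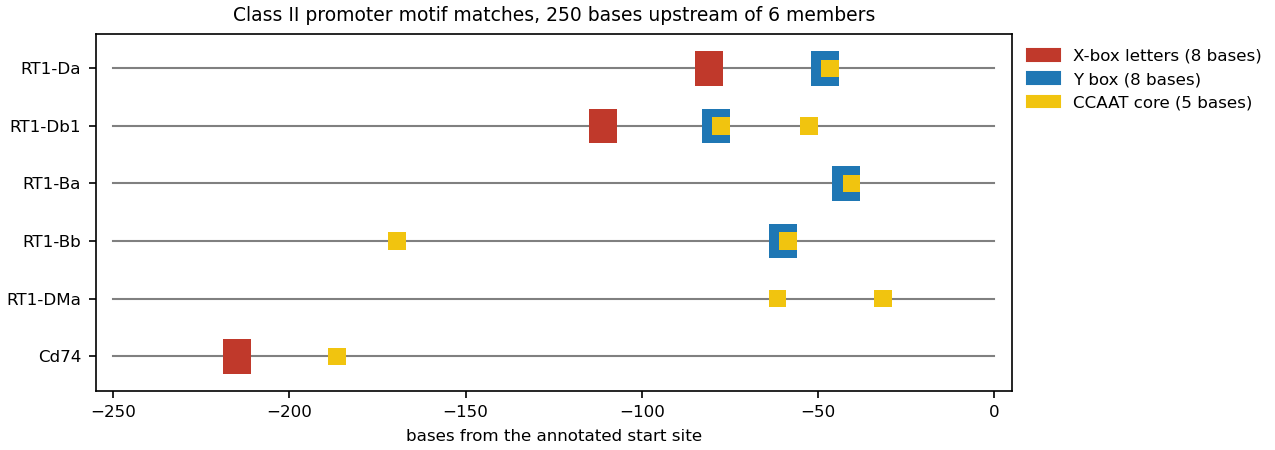
Positions of the motif matches in the 250 bases upstream of the annotated start site (bases, x axis) in 6 class II genes (y axis). Red blocks are X-box matches of 8 bases, blue blocks Y box matches of 8 bases and yellow blocks the 5-base core. The X-box match precedes the Y box match in RT1-Da and RT1-Db1, and Cd74 has its X-box match farther upstream, at -219 to -212.

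On the NP background the P segment went with lower class II expression in several genes. Of the 13 tested probe sets, NP.P rats had a lower signal than NP rats at 4 and a higher signal at 0, at a false discovery rate of 10% (limma on log2 signals, p-values adjusted over all 18625 probe sets). They belonged to 4 different genes: the alpha chains RT1-Da and RT1-Ba, the beta chain RT1-Db1 and the invariant chain Cd74. Of all tested probe sets, 2.3% were called in this comparison and 1.49% were called lower. In bulk RNA of a femur, fewer class II-expressing cells and less class II RNA in each cell cannot be told apart.

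Cd74, which chaperones the class II chains, read 8176, 7195, 8523, 8624 and 8404 in the 5 NP rats and 6986, 5199, 6001, 4348 and 5245 in the NP.P rats. The groups did not overlap, the highest NP.P rat lying just under the lowest NP rat. The difference was -0.57 ± 0.10 (log2, SE, n = 5 and 5), a 1.49-fold lower signal in NP.P rats (limma adjusted p = 0.0134). P.NP rats (6757 to 8374) and P rats (6922 to 8573) overlapped fully, with a difference of 0.00 ± 0.10 (limma adjusted p = 0.998).

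RT1-Db1, the beta chain of the D molecule, has 2 probe sets. At 1370383_s_at, a type of probe set whose probes may also match related transcripts, the signal was 1145, 1005, 1103, 1111 and 1092 in NP rats and 791.9, 739.6, 700.9, 643.2 and 722.6 in NP.P rats. All NP.P rats were below all NP rats and also below all rats of the other two strains. NP.P rats were lower by 1.52-fold (-0.60 ± 0.08, limma adjusted p = 0.00101), the smallest adjusted p of the class II probe sets in this comparison. RT1-Db1 was singled out by the study on these same samples, so its call here is not independent evidence. The neighbouring gene RT1-Db2 has no probe set of its own in the annotation, and whether its transcript reaches these probes was not tested.

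RT1-Da, the alpha chain that pairs with the D beta chain, read 5547, 4316, 5556, 5821 and 6092 in NP rats. NP.P rats read 4543, 3210.0, 4509, 3462 and 3456, so that the lowest NP rat lay among the NP.P rats. NP.P rats were 1.43-fold lower (-0.52 ± 0.11, limma adjusted p = 0.0321). Without NP.P replicate 4 the difference was -0.48 and the adjusted p rose to 0.101, just past the threshold.

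RT1-Ba, the alpha chain of the B molecule, read at 1370822_at 1274, 1078, 1224, 1437 and 1391 in NP rats. NP.P rats read 1008, 691.1, 852.0, 504.4 and 784.2 and lay below every NP rat. The difference of -0.77 ± 0.15 was the largest of the 4, a 1.70-fold lower signal (limma adjusted p = 0.0223).

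The remaining members were not called between NP.P and NP rats. The 2 DM chains, which edit the peptide cargo, differed by -0.18 ± 0.11 (RT1-DMb, adjusted p = 0.512, limma) and -0.12 ± 0.11 (RT1-DMa, adjusted p = 0.711, limma). Ciita, the coactivator, differed by -0.11 ± 0.15 at 1379381_at (limma adjusted p = 0.820), with 211.3 to 282.6 in NP rats and 160.7 to 285.7 in NP.P rats. Its other probe set, 1369214_a_at, was too dim to be tested, with signals from 30.71 to 271.2 over the 20 arrays. Of the 13 tested probe sets 12 had a difference below 0, and 1 of RT1-Ba, 1392334_at, had one above it (0.47 ± 0.22, limma adjusted p = 0.375).

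Fits of the 2 strains alone made fewer calls. With only those arrays in limma, and again with the methods' unequal-variance test, RT1-Db1 at 1370383_s_at was the only class II probe set called, with limma adjusted p = 0.0236 and an unequal-variance adjusted p = 0.0527. Over all probe sets these fits called 66 and 10, against 429 with 4 strains in the model.

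The reverse exchange gave no such difference. When P.NP rats were set against P rats, limma called 0 of the 13 probe sets, 0 had an unadjusted p under 0.05 and the unequal-variance test called 0, where limma called 0.231% of all tested probe sets. RT1-Da differed by -0.09 ± 0.11, RT1-Db1 at 1370383_s_at by 0.01 ± 0.08, RT1-Ba at 1370822_at by 0.03 ± 0.15 and RT1-DMb by 0.00 ± 0.11 (log2, SE, n = 5 and 5). The widest difference was 0.96 ± 0.51, at the RT1-Ba probe set 1381593_x_at, where the 5 P rats ranged from 50.05 to 439.9.

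The effect of the P segment differed between the 2 backgrounds for 1 probe set. This was RT1-Db1 at 1370383_s_at, where the P segment went with a difference of -0.60 on the NP background and almost none on the P background, an interaction of 0.59 ± 0.11 (limma adjusted p = 0.0377). Cd74 (0.57 ± 0.15) and RT1-Da (0.60 ± 0.16) had interactions of like size that missed the threshold (limma adjusted p = 0.146 for both), as did RT1-Ba at 1370822_at (0.73 ± 0.21, adjusted p = 0.221, limma). Of all probe sets 0.317% were called. Averaged over both backgrounds, the P segment went with a lower signal of RT1-Db1 at 1370383_s_at only (-0.31 ± 0.06, limma adjusted p = 0.0177), with 0.886% of all probe sets called.

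**Figure D2:**
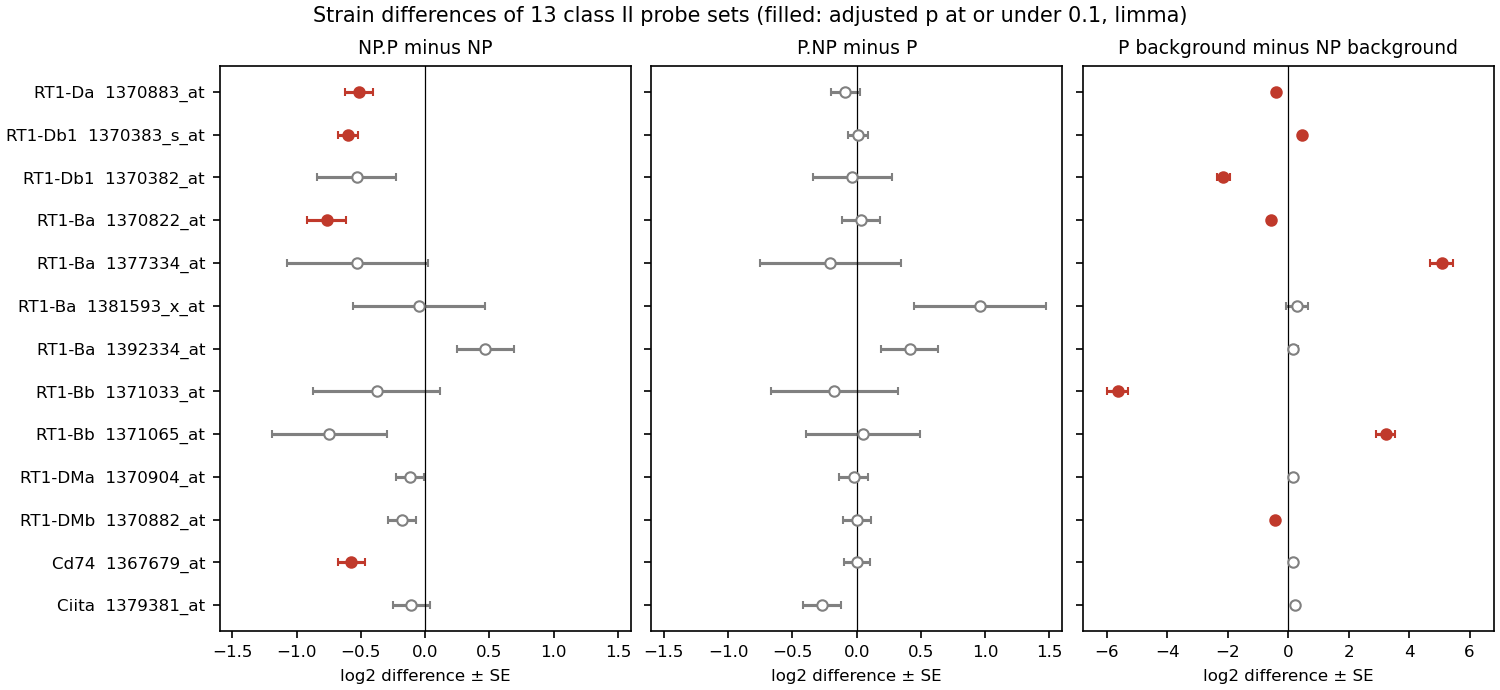
Log2 differences (x axis, with SE) of the 13 tested class II probe sets (y axis) between NP.P and NP rats, between P.NP and P rats, and between the P and NP backgrounds. Filled red points have an adjusted p at or under 0.1 in limma. The left panel has 4 filled points, all below 0, the middle panel has none, and the right panel, on a wider axis, has 8 filled points that run from -5.64 to 5.07.

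At 4 probe sets the 2 genetic backgrounds differed far more, and probe sets of the same gene went opposite ways. The other called differences between backgrounds lay between 0.39 and 0.56 in absolute log2 value. Those called between NP.P and NP rats lay between 0.52 and 0.77. Of the 13 tested probe sets, 8 were called between the P background (P and P.NP rats) and the NP background (NP and NP.P rats), where 22.5% of all probe sets were called. Of the 8, 5 were lower and 3 higher on the P background. Between the parental strains P and NP alone, 7 were called, against 5.36% of all probe sets. The test over all 4 strains called 9, against 18.2% of all probe sets. Only 37 of the 18625 probe sets (0.199%) differed by a log2 value of 2 or more between the backgrounds, and 4 of these belonged to RT1-Bb, RT1-Ba and RT1-Db1. Each of these 4 passed the filter on dim probe sets only through the background in which it was bright, so it could hardly be tested without differing. The counts of 8, 7 and 9 called include all 4, so they cannot be read against the shares of all probe sets. Folds of these 4 are given as lower bounds, with each dim array set at the filter signal of 169.7 where it was below that. No p is given for them.

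RT1-Bb, the beta chain of the B molecule, showed this most clearly. At 1371033_at, NP rats read 2440.0, 2419, 2376, 2611 and 3203 and NP.P rats read 2559, 1398, 2045, 1808 and 2396. P.NP rats read 12.86, 41.18, 74.40, 109.2 and 34.71 and P rats read 12.85, 62.04, 56.62, 58.28 and 103.4. Every rat of the NP background was thus bright and every rat of the P background near the bottom of the scale, at least a 13.4-fold difference between the backgrounds (-5.64 ± 0.35 on the log2 scale as measured).

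The second RT1-Bb probe set gave the opposite picture. At 1371065_at, NP rats read 133.1, 82.56, 102.0, 78.58 and 100.2 and NP.P rats read 25.77, 18.46, 124.2, 55.88 and 201.8. P.NP rats read 725.8, 662.2, 689.4, 728.7 and 780.2 and P rats read 901.0, 663.5, 582.1, 606.8 and 747.0. Here all rats of the P background were the bright ones, by at least 4.07-fold (3.22 ± 0.31 on the log2 scale as measured). The P minus NP differences at the 2 probe sets were -5.74 and 2.83 on the log2 scale as measured.

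RT1-Ba has 4 probe sets, which did not all go the same way. At 1377334_at, NP rats read 22.43, 80.61, 26.30, 95.26 and 120.7, NP.P rats 58.58, 38.54, 12, 159.8 and 20.14, P.NP rats 1806, 1227, 1120.0, 1481 and 1811, and P rats 2343, 1567, 1683, 1613 and 1354. The P background was higher by at least 9.24-fold (5.07 ± 0.39 on the log2 scale as measured), with no overlap. At 1370822_at the P background was instead lower by 1.48-fold (-0.56 ± 0.11, limma adjusted p = 0.00119), with NP rats above all P rats. This was mostly through NP rats, since NP.P rats (504.4 to 1008) overlapped P.NP (548.5 to 735.9) and P rats (519.4 to 748.2). The other two, 1381593_x_at and 1392334_at, were dim, with strain means between 157.6 and 344.3, and were not called (0.28 ± 0.36 and 0.18 ± 0.16, limma adjusted p = 0.646 and 0.486).

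RT1-Db1 also split. At 1370382_at NP rats read 760.0, 677.8, 899.9, 801.0 and 823.2 and NP.P rats 681.8, 563.1, 532.8, 598.1 and 393.3, whereas P.NP rats read 319.5, 122.8, 110.2, 198.7 and 77.66 and P rats 86.22, 139.3, 184.4, 134.2 and 253.2. The P background was lower by at least 3.4-fold without overlap (-2.15 ± 0.22 on the log2 scale as measured). At 1370383_s_at it was higher by 1.37-fold (0.46 ± 0.06, limma adjusted p = 1.01e-05), with NP.P rats the lowest strain, and P and NP rats differed by 0.15 ± 0.08 (limma adjusted p = 0.370).

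Across RT1-Ba, RT1-Bb, RT1-Db1 and Ciita there were 9 pairs of probe sets for the same gene. Their strain differences were compared by 2-sided exact permutation tests, 27 in all, in which 5 arrays against 5 can give no p under 0.00794. In the P minus NP comparison 6 of the 9 pairs disagreed at 10%, but 5 of the 6 held a probe set that was bright on only 1 background, so these 5 tests add nothing to the levels above. The remaining pair was RT1-Ba 1370822_at against the dim 1392334_at. It had -1.17 in P minus NP (exact permutation test, unadjusted p = 0.0159, adjusted p = 0.0714). In NP.P minus NP it had -1.24 (exact permutation test, unadjusted p = 0.0238, adjusted p = 0.0918). These adjusted p come from a correction that includes the 5 tests above, and whether the pair passes 10% without them was not tested. In P.NP minus P 0 pairs disagreed, and the smallest unadjusted p was 0.111 (exact permutation test). Sequence differences between the strains under the probes were not tested, since no probe or strain sequence was used here, so these levels cannot be read as the total RNA of RT1-Ba, RT1-Bb or RT1-Db1.

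The members with a single tested probe set differed less. RT1-DMb was lower on the P background by 1.35-fold (-0.44 ± 0.08, limma adjusted p = 0.000613), with 1997 to 3170.0 on the NP and 1579 to 2163 on the P background. RT1-Da was lower by 1.31-fold (-0.39 ± 0.08, limma adjusted p = 0.00206), mostly through NP rats, since NP.P rats (3210.0 to 4543) overlapped P.NP (3017 to 3752) and P rats (3296 to 3922). Cd74 (0.17 ± 0.07, adjusted p = 0.127), RT1-DMa (0.17 ± 0.08, adjusted p = 0.147) and Ciita (0.23 ± 0.10, adjusted p = 0.140) were not called in limma.

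**Figure D3:**
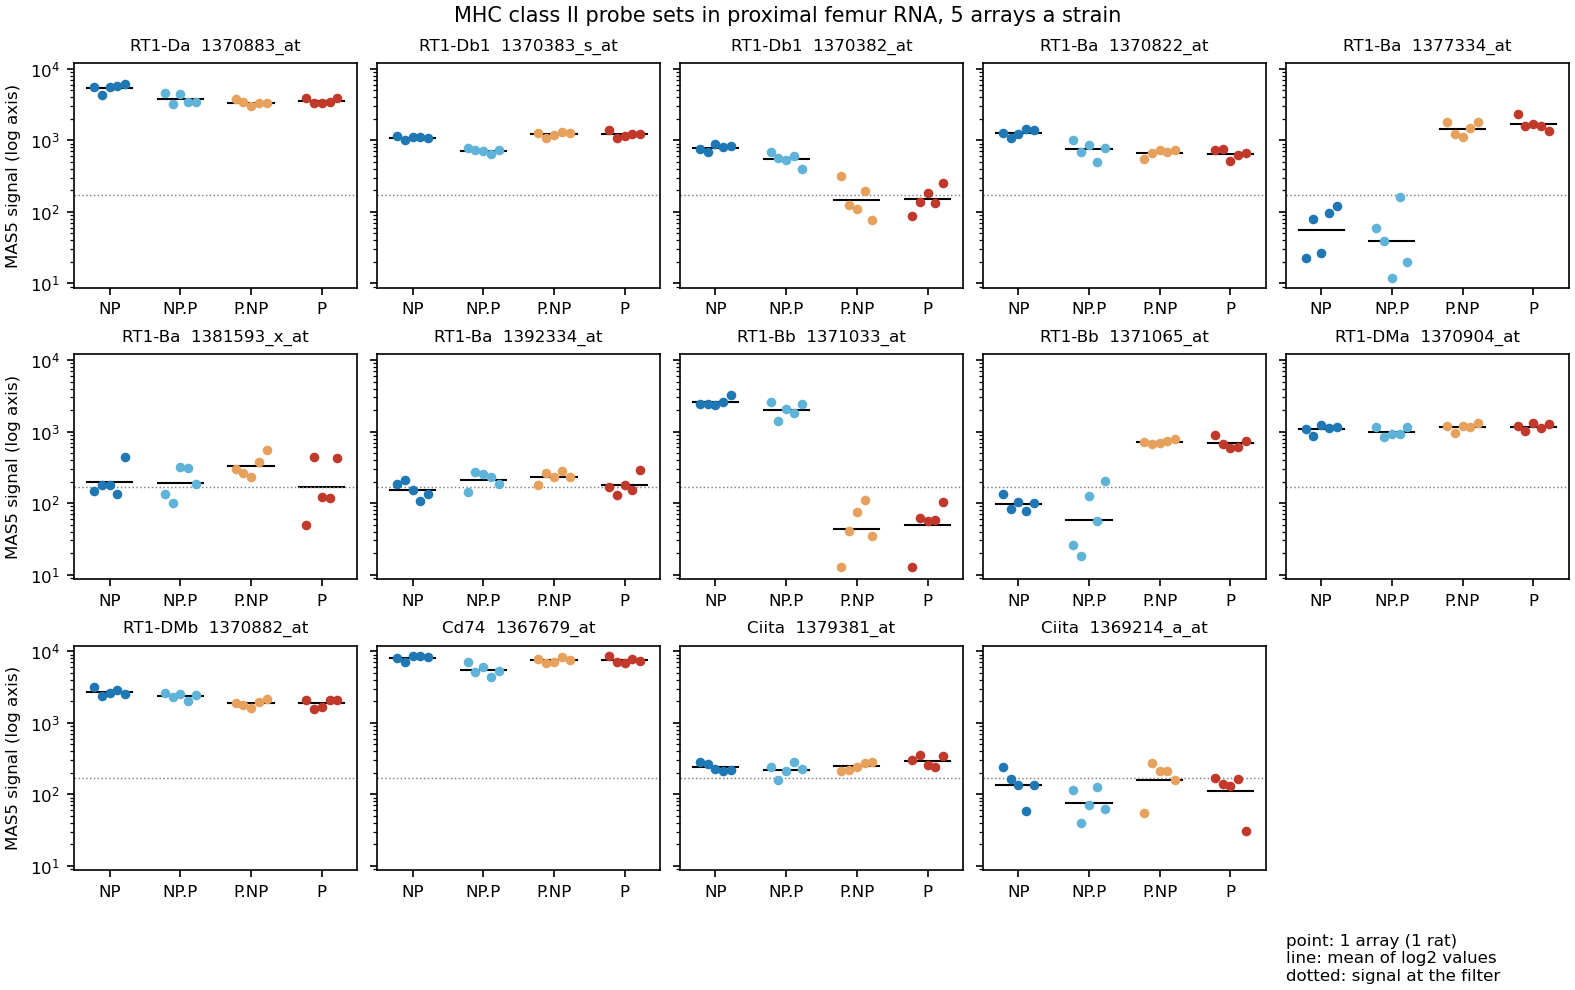
MAS5 signal (y axis, log scale) of each of the 14 class II probe sets in the 4 strains (x axis), with 1 point an array, a line at the mean of the log2 values of 5 arrays and a dotted line at 169.7, the signal at the filter. The 2 RT1-Bb panels are mirror images, with NP and NP.P rats between 1398 and 3203 in one and between 18.46 and 201.8 in the other.

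Tested probe sets of the genes around the class II cluster differed by less than a log2 value of 2. Within 500 kb of the class II genes of chromosome 20, 37 probe sets of other genes were tested, and 10 of them (27.0%) were called between backgrounds, close to the 22.5% of all probe sets. The largest of the 37 was 1.66 in absolute log2 value, at Phf1, which is among the 10 called. Its means were 482.9 in NP and 466.0 in NP.P rats, against 149.8 in P.NP and 215.1 in P rats. It too passed the filter only through the NP background, so it could hardly be tested without differing. The zinc transporter Slc39a7 was lower on the P background (-1.08 ± 0.07, limma adjusted p = 8.31e-10), and the proteasome subunit Psmb8 (0.65 ± 0.06, limma adjusted p = 4.35e-07) and the prefoldin subunit Pfdn6 (0.60 ± 0.06, limma adjusted p = 8.58e-07) were higher. A dim probe set of Vps52 did not pass the filter but was also brighter on the NP background, with means of 384.1 ± 135.4 in NP and 312.2 ± 159.7 in NP.P rats against 106.2 ± 65.05 in P.NP and 76.53 ± 55.79 in P rats (SD, n = 5). Limma called 0 of the 37 for the segment on either background, with 2 on the NP and 4 on the P background at an unadjusted p under 0.05, and the unequal-variance test also called 0.

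**Figure D4:**
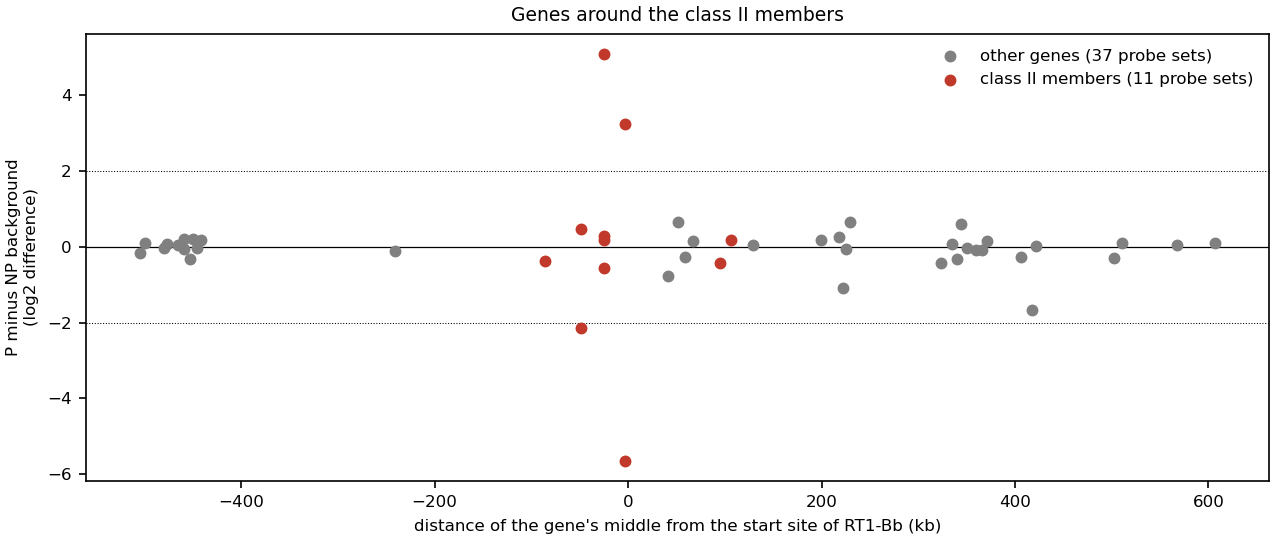
Log2 difference between the P and NP backgrounds (y axis) of 37 probe sets of other genes (grey) and 11 class II probe sets (red) by the distance of the gene's middle from the start site of RT1-Bb (kb, x axis). Dotted lines mark log2 differences of -2 and 2, and only 4 class II probe sets lie outside them.

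The other tested genes of the class II pathway were not called in NP.P rats. Of the genes that bind class II promoters or carry the interferon-gamma signal, 14 were listed, 11 were tested and limma called 0 between NP.P and NP rats, with 0 at an unadjusted p under 0.05 and 0 by the unequal-variance test. Their median difference was -0.02, against -0.01 over all probe sets. Rfx5, a subunit of the X-box complex, had -0.08 ± 0.08 (limma adjusted p = 0.712), and Irf1, an interferon response factor that acts upstream of Ciita, had -0.12 ± 0.09 (limma adjusted p = 0.634). Of the proteases and other genes of class II processing, 14 were tested and limma called 0, with 2 at an unadjusted p under 0.05, 0 by the unequal-variance test and a median of 0.02. Of these differences 8 were above 0 and 6 below it. The lysosomal protease Ctsb (0.08 ± 0.07, limma adjusted p = 0.704), the invariant chain ligand Mif (0.08 ± 0.08, adjusted p = 0.740) and the tetraspanin Cd82 (0.02 ± 0.08, adjusted p = 0.948) were not called.

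Genes of the class I route, which loads peptides from the cytosol, were not called in NP.P rats either, with 12 tested, 0 called by limma or by the unequal-variance test, 1 at an unadjusted p under 0.05 and a median of -0.08. Between backgrounds 3 of the 12 were lower and 1 was higher on the P background, where 22.5% of all probe sets were called. The peptide transporter subunit Tap2, whose gene sits beside RT1-Bb, was lower (-0.77 ± 0.09, limma adjusted p = 6.92e-06), Tap1 was lower by less (-0.27 ± 0.09, adjusted p = 0.0495) and Psmb8 was higher. Tap2, Tap1 and Psmb8 also lie within 500 kb of the class II genes and were already counted among the genes around the cluster.

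Several markers of the cells that make class II molecules also fell in NP.P rats. In this comparison limma called 2.3% of all tested probe sets and called 1.49% lower. The unequal-variance test, which called 10 of all probe sets, called 0 B lymphoid, 0 dendritic cell and 0 macrophage and monocyte markers. Of 15 B lymphoid markers listed, 8 were tested, and NP.P rats were lower than NP rats at 4 and higher at 0, with a median of -0.38. The B cell surface protein Ms4a1 (-0.53 ± 0.12, limma adjusted p = 0.0421), the B cell adaptor Blnk (-0.35 ± 0.09, adjusted p = 0.0730) and the B cell protein Fcrla (-0.32 ± 0.09, adjusted p = 0.0862) were among them. Of 15 dendritic cell markers 5 were tested and 2 were lower, Irf8 (-0.53 ± 0.11, limma adjusted p = 0.0265) and Cd83 (-0.49 ± 0.13, adjusted p = 0.0862), whereas Clec10a had -0.36 ± 0.16 (adjusted p = 0.313). Of 16 macrophage and monocyte markers 13 were tested and 1 was lower, the complement subunit C1qc (-0.32 ± 0.08, limma adjusted p = 0.0641), and the scavenger receptor Cd163 and the pore protein Mpeg1 had -0.30 ± 0.13 and -0.32 ± 0.10 (adjusted p = 0.336 and 0.154).

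The summed signal of the 8 B lymphoid markers ranged from 28470.0 to 36860.0 in NP rats, from 23850.0 to 31750.0 in NP.P rats, from 28490.0 to 35930.0 in P.NP rats and from 31780.0 to 38220.0 in P rats. That of the 5 dendritic cell markers ranged from 4310.0 to 4664 in NP rats and from 3054 to 3542 in NP.P rats, without overlap. In P.NP rats it ranged from 3526 to 4255 and in P rats from 3413 to 4177, also below every NP rat. That of the 13 macrophage markers ranged from 72940.0 to 82770.0 in NP and from 65020.0 to 79130.0 in NP.P rats. It ranged from 71250.0 to 77660.0 in P.NP and from 68600.0 to 76490.0 in P rats. The dendritic cell markers Clec9a and Cd80 were near the bottom of the scale in all strains, with strain means between 12.71 and 37.37.

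Markers of other marrow cells also differed between NP.P and NP rats, where limma called 2.3% of all tested probe sets. Of 8 megakaryocyte and platelet markers 4 were lower, with a median of -0.34, led by the platelet chemokine Ppbp (-0.87 ± 0.12, limma adjusted p = 0.00202). Of 12 erythroid markers 2 were higher and 0 lower, with a median of 0.23, among them Fech, the last enzyme of haem synthesis (0.25 ± 0.06, limma adjusted p = 0.0730). Of 6 granulocyte markers 1, Lcn2, was lower (-0.35 ± 0.09, limma adjusted p = 0.0774), and limma called 0 of 7 T and NK and 0 of 9 bone markers, with 2 and 0 at an unadjusted p under 0.05. The unequal-variance test called 0 markers of any of these cell types.

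Class II and B lymphoid levels also varied together between rats of the same strain. A class II score, the mean of the centred log2 values of the 8 members at their brightest probe sets, had within-strain correlations over 20 arrays of 0.68 with the B lymphoid score, 0.52 with the macrophage score, 0.34 with the dendritic cell score and -0.17 with the erythroid score. This score includes RT1-Bb at 1371033_at, which in P and P.NP rats only varied near the bottom of the scale. Over the 7 members whose probe set had a mean above the filter in every strain, a choice made after seeing the data, the correlations were 0.87 with the B lymphoid, 0.56 with the macrophage, 0.75 with the T and NK and 0.36 with the dendritic cell score. For megakaryocyte and platelet markers the value was 0.53, for genes within 500 kb 0.41, for granulocyte markers 0.145 and for erythroid markers -0.34. All scores come from the same arrays and RNA, so they share any difference in RNA handling or dissection.

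With the B lymphoid score as a covariate, the NP.P minus NP difference was -0.27 for Cd74 (limma adjusted p = 0.275), -0.24 for RT1-Da (adjusted p = 0.424), -0.41 for RT1-Ba at 1370822_at (adjusted p = 0.342) and -0.42 for RT1-Db1 at 1370383_s_at (adjusted p = 0.101), so that 0 of the 4 calls held. This was not particular to class II genes, since over all probe sets the same fit called 10, against 429 without the covariate. With the macrophage score as a covariate the differences were -0.41, -0.47, -0.55 and -0.48, and RT1-Db1 was the only member called (limma adjusted p = 0.0257), with 85 calls over all probe sets. The calls at RT1-Bb, RT1-Ba and RT1-Db1 between backgrounds were kept in both fits. For probe sets bright on only 1 background this adds nothing, since they could hardly be tested without differing. The B lymphoid score was itself lower in NP.P rats (mean -0.25) than in NP rats (0.13), and the part of cell numbers in the lower class II signals was not tested.

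**Figure D5:**
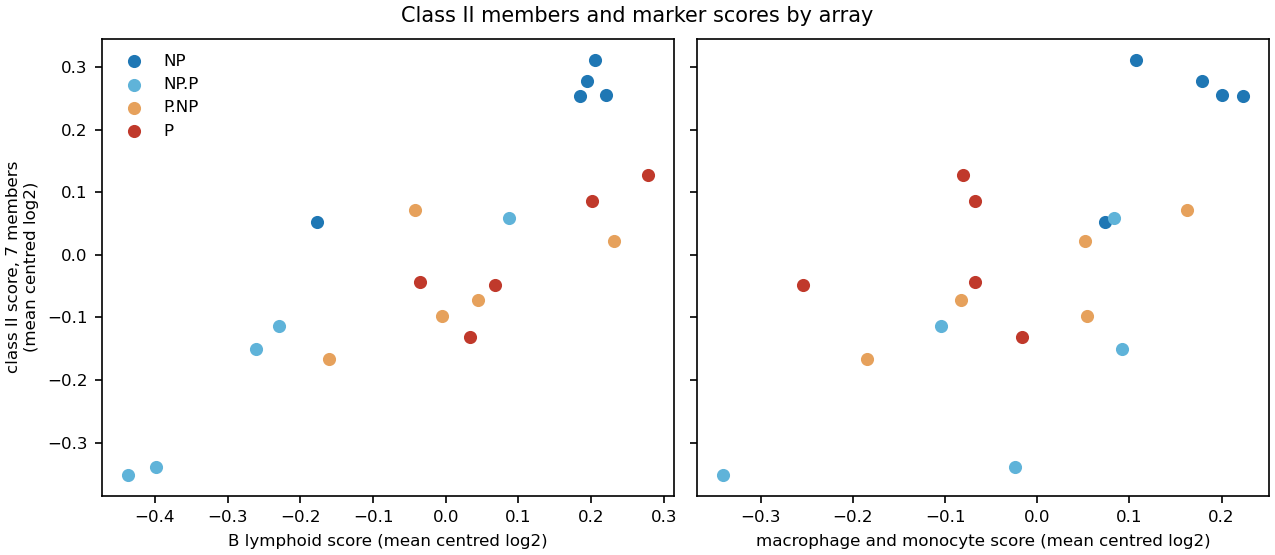
Class II score over 7 members (y axis, mean centred log2) against the B lymphoid score (left, x axis) and the macrophage and monocyte score (right, x axis), 1 point an array, coloured by strain. In the left panel 4 of the 5 NP.P rats lie low on both axes and 1 lies among the P and P.NP rats, and the within-strain correlations are 0.87 on the left and 0.56 on the right.

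Within strains, Cd74 followed RT1-Db1 at 1370383_s_at (r = 0.79 over 20 arrays after removal of strain means), RT1-Ba at 1370822_at (0.73), RT1-Da (0.71), RT1-DMb (0.67) and RT1-DMa (0.47). Ciita at 1379381_at had an r of -0.12 with Cd74 and of -0.01 with RT1-Da. RT1-Bb at 1371033_at had an r of -0.09 with Cd74. At 1371065_at it had -0.05, and the other probe sets of RT1-Db1 and RT1-Ba lay between -0.41 and 0.09. Cd74 thus followed RT1-Da, both DM chains and 1 probe set each of RT1-Db1 and RT1-Ba. With the means of same-numbered arrays removed as well, a choice made after seeing the data, r with Cd74 was 0.66 for RT1-Db1, 0.82 for RT1-Ba, 0.56 for RT1-Da, 0.57 for RT1-DMb and 0.36 for RT1-DMa at the same probe sets, and the 7-member score had 0.78 with the B lymphoid, 0.45 with the macrophage and 0.48 with the T and NK score.

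Of 14123 probe sets ranked by within-strain correlation with the 8-member score, the 10 genes most like it were Ptpn1 (0.81), Prkacb (0.80), Jtb (0.77), Pomgnt2, Fancc, Cd37, Kcnab2, Akap8, Abhd13 and C9h6orf226 (0.73), where the 99th percentile was 0.57. With the 7-member score the 10 were Fam107b (0.94), Tifa (0.89), Ccnd3 (0.88), Togaram1, Pdlim7, Ms4a1 (0.85), Mcpt8 (0.84), Abhd13, Dock11 and Cd37 (0.82), where the 99th percentile was 0.69. The 2 rankings shared 2 of 10 genes, Abhd13 and the leukocyte tetraspanin Cd37, so most of the first ranking turned on RT1-Bb. Among the second 10, Fam107b (-0.55 ± 0.15, limma adjusted p = 0.0805), Tifa (-0.42 ± 0.10, adjusted p = 0.0641), the B cell marker Ms4a1, the basophil protease Mcpt8 (-0.86 ± 0.14, adjusted p = 0.00526) and Dock11 (-0.31 ± 0.08, adjusted p = 0.0730) were called lower in NP.P rats than in NP rats. Limma called 1.49% of all tested probe sets lower there. The rest of the second 10 had differences below 0 but were not called.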

How the data were processed

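The authors scanned Affymetrix Rat Genome 230 2.0 arrays and deposited MAS5 signals, a linear intensity scaled by them, for 31099 probe sets in 20 samples. No column held another sample. Probe sets were named through the platform's annotation, and positions and promoters are those of RefSeq on GRCr8. After 57 control probe sets were removed, signals under 1 (190 values) were set to 1 and log2 was taken. Probe sets with a mean log2 at or above the 40th percentile (signal 169.7) were tested in limma 3.58.1 (R 4.3.3) with 4 strain means and 16 residual degrees of freedom, and called at a Benjamini-Hochberg false discovery rate of 10%. The scripts were tested on simulated data. The number of arrays limits the precision, and p-values measure the spread between arrays. Pairs of probe sets were compared by exact permutation of arrays. Every member was named at every probe set. From each list and from the 500 kb neighbourhood, up to 3 genes with the smallest adjusted p over strains were named. Clec9a, Cd80, Vps52, Phf1 and the genes most like the 7-member score were named after their values were seen. The members and lists were chosen with earlier results of these data known.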

Additional observations from a re-analysis of the deposited data

Results flagged for a closer look

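Among 56 groups of 5 arrays, 3 had 1 array far from the other 4, and chance gives such a flag in about 1 of 20 groups, or 2.8 here. NP replicate 5 read 446.5 at the RT1-Ba probe set 1381593_x_at and 3203 at the RT1-Bb probe set 1371033_at, in both cases above its group. P replicate 5 read 30.71 at the Ciita probe set 1369214_a_at, below its group. The effect of the P segment on RT1-Db1 at 1370383_s_at differed between the P and NP backgrounds by 0.59 on the log2 scale, by the interaction test given above.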

How the results depend on the processing

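Of 21 differences named as called, 14 kept their direction and call under every alternative in which they were tested and 0 changed direction. The 21 include calls at probe sets bright on only 1 background, where a kept call adds nothing. The number of class II probe sets called between NP.P and NP rats (4) was 1 with those 2 strains alone, 1 with the unequal-variance test, 0 with the B lymphoid score and 1 with the macrophage score as a covariate, and 3 to 4 when an array was left out (3 without NP.P replicate 4). With the filter at the 60th percentile, 3 were called between P and NP rats, 5 between backgrounds, 3 for the segment, 3 for the interaction and 5 over strains. That filter left out dim probe sets, so fewer than the 13 class II probe sets were tested. Of all 12417 probe sets tested there, 1013, 3943, 270, 127 and 3423 were called, in the same order. With 1 probe set for each member, 4 of 8 were called between P and NP rats and 5 of 8 between backgrounds. For the segment (1 called), the offset before the log gave 2, the mean-variance trend 3, the macrophage score 0 and left-out arrays 1 to 3 (3 without NP replicate 2 or NP.P replicate 1, 2 without P.NP replicate 1 or P replicate 1). For the interaction (1 called), no filter gave 0, the trend 3, the B lymphoid score 0 and left-out arrays 1 to 3 (3 without NP.P replicate 1, 2 without NP replicate 2). The cause of these changes was not tested, other than the smaller sets of probe sets or arrays. No label ties the replicate numbers to a litter or batch. Same-numbered arrays correlated between -0.09 and 0.33, with a mean above that of other arrays in 5 of 6 strain pairs, and were the best match in 21 of 60 cases (12 by chance), so a weak shared effect of the number may exist. With the number as a replicate block, 2 were called for the segment, and no other count moved by over 1.5 times. The correlation of the class II score with the B lymphoid score rose from 0.68 to 0.87 without RT1-Bb. Signals under the filter on 1 background, at both RT1-Bb probe sets, RT1-Ba 1377334_at and RT1-Db1 1370382_at, leave only a bound for their folds.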
